A study of Mus musculus with 4 samples.

Results

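The genes described here encode the amino acid and neurotransmitter carriers of the plasma membrane and lysosome, taken as every gene whose symbol begins with *Slc1a*, *Slc3a*, *Slc6a*, *Slc7a*, *Slc36a*, *Slc38a* or *Slc43a* followed by a number. The mouse annotation holds 61 such genes, and 46 of them, among the 14924 genes analysed, are described here. RNA was sequenced from whole lenses of mice that were 1 month old, in 2 libraries of S100A4-/- (S100A4 null) lenses and 2 libraries of lenses of wild type (WT) littermates, both on a C57BL/6J background and with no treatment given. Each library came from a pool of 6 to 12 lenses, so a p-value refers to the spread between pools and not between single animals. The main fit sets that spread, and each SE, largely from other genes of like level and not from a gene's own 2 libraries per group. Reads counted on genes came to 81602367 (S100A4-/- 1), 74108017 (S100A4-/- 2), 70253985 (WT 1) and 68038158 (WT 2). A normalized value is the number of reads on a gene divided by a size factor of its library, and a single read was worth 0.856, 1.01, 1.04 and 1.09 in S100A4-/- 1, S100A4-/- 2, WT 1 and WT 2. *S100a4*, the gene that the mice lack, had normalized values of 14.6 and 18.2 in S100A4-/- and 14420 and 14385 in WT.

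Solute carriers of these families move amino acids and related molecules across membranes, most of them driven by the sodium gradient or by exchange of one amino acid for another. The lens has no blood vessels and takes its amino acids from the surrounding humors, and it uses cysteine, glutamate and glycine to make glutathione and holds taurine as an osmolyte. In the retina the carriers for glutamate, GABA and glycine clear transmitter from the synapse into neurons and Müller glia, the glial cells that span the retina.

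Of the 46 carriers, 9 were higher in S100A4-/- lenses and none was lower, at a change of at least 2-fold and an adjusted p of at most 0.05 (limma on log2 values, Benjamini-Hochberg over all 14780 genes tested). The 9 were *Slc1a3* and *Slc1a7* of the glutamate carriers, *Slc6a13*, *Slc6a6* and *Slc6a9* of the sodium- and chloride-dependent carriers, *Slc7a1*, *Slc7a3* and *Slc7a14* of the cationic amino acid carriers, and *Slc38a8* of the glutamine carriers. This was 19.6% of the carriers, where 3.65% of all genes tested were higher and 0.0744% were lower. Both S100A4-/- libraries lay above both WT libraries for 24 carriers (23.7% of all genes tested) and below both for 6 (23.2% of all genes tested), and the groups overlapped for 16. The median log2 fold change was 0.22 over the carriers and -0.005 over all genes tested. With no lower limit on the fold, 15 carriers were higher and 0 lower at the same adjusted p, beside 5.62% and 1.33% of all genes tested. At an unadjusted p under 0.05 the counts were 21 higher and 3 lower, beside 11.0% and 6.71% of all genes tested. All 46 passed the filter of a value of 10 in at least 1 library, but *Slc6a2*, *Slc7a3*, *Slc7a10*, *Slc7a14* and *Slc36a2* passed only through the S100A4-/- libraries and *Slc3a1* only through a WT library.

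**Figure D1:**
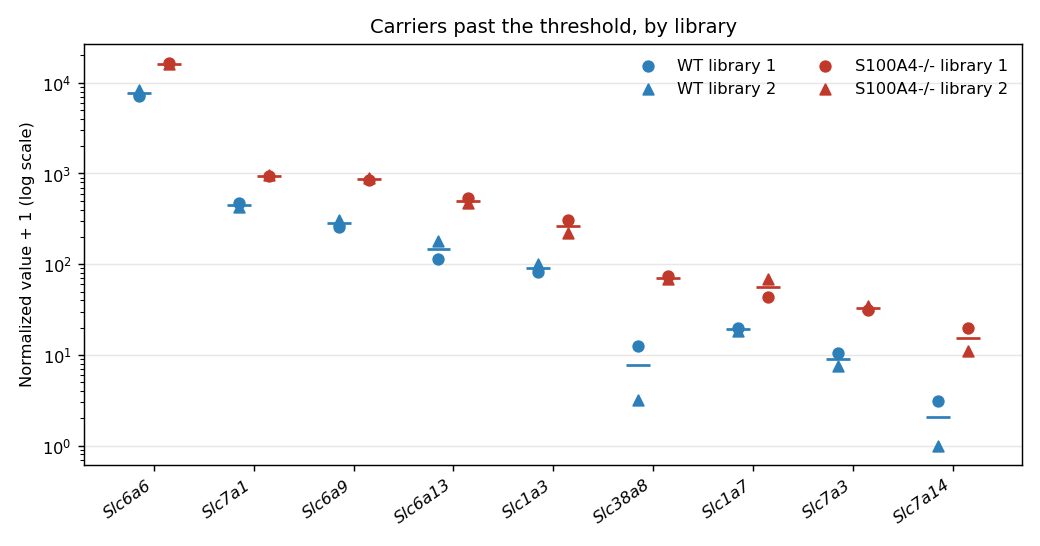
Normalized value + 1 (log scale) of the 9 carriers past the threshold in each of the 4 libraries, circles for library 1 and triangles for library 2 of S100A4-/- (red) and WT (blue), with bars at the group means. For all 9 genes both S100A4-/- libraries lie above both WT libraries, from *Slc6a6* at 16459 and 16069 against 7209 and 8228 to *Slc7a14* at 18.8 and 10.1 against 2.09 and 0.

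Among the 6 Slc1 carriers analysed (of 7 annotated), 2 passed the threshold and the median log2 fold change was 0.82. *Slc1a3* (ENSMUSG00000005360, chr15:8634124-8710764), the glutamate carrier GLAST of Müller glia and astrocytes, had values of 302 and 222 in S100A4-/- and 80.4 and 101 in WT. The lower S100A4-/- library was above the higher WT library, and the log2 fold change was 1.51 ± 0.18 (SE, adjusted p = 2.58e-08). *Slc1a7*, a glutamate carrier best known from photoreceptors and bipolar cells, had 42.8 and 67.9 against 18.8 and 17.5. Its WT libraries were close together, the S100A4-/- libraries were apart, and the log2 fold change was 1.52 ± 0.37 (adjusted p = 0.00463). *Slc1a2*, the glial glutamate carrier GLT-1, stood at 164 and 157 against 79.4 and 90.9, and its log2 fold change of 0.91 ± 0.19 (adjusted p = 0.000808) fell short of 2-fold. *Slc1a4*, a neutral amino acid exchanger for serine, alanine and cysteine and the most abundant member of the family per kb of exon, had 1526 and 1573 against 1015 and 997. These groups were well separated, but the log2 fold change was only 0.62 ± 0.07 (adjusted p = 8.25e-09). *Slc1a5*, which carries glutamine, had 151 and 181 against 139.9 and 198, and the 95% interval of its log2 fold change ran from -0.36 to 0.34. *Slc1a1*, the neuronal glutamate and cysteine carrier, had a log2 fold change of 0.73 with an adjusted p of 0.169.

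The Slc6 family, with 12 members described, held 3 of the 9 carriers past the threshold, and its median log2 fold change was 0.43. *Slc6a6* (ENSMUSG00000030096, chr6:91684053-91759066), the taurine carrier, had values of 16459 and 16069 in S100A4-/- and 7209 and 8228 in WT. It was the most abundant of the 9, and its groups were apart by far more than the libraries within each, with a log2 fold change of 1.08 ± 0.05 (adjusted p = 1.03e-19). The 95% interval of its fold ran from 1.97 to 2.26, so it reached just under the threshold of 2-fold. *Slc6a13* (ENSMUSG00000030108, chr6:121300227-121337733), the GABA carrier GAT2, had 531 and 472 against 114 and 179.6. The log2 fold change was 1.80 ± 0.15 (adjusted p = 4.44e-12). *Slc6a9* (ENSMUSG00000028542, chr4:117834506-117875198), the glycine carrier GlyT1, had 847 and 897 against 254 and 309.9. Neither group spread much, and the log2 fold change was 1.63 ± 0.10 (adjusted p = 1.75e-15).

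The GABA carriers *Slc6a11* and *Slc6a12* lay above WT in both S100A4-/- libraries without passing the threshold. *Slc6a11*, the glial GABA carrier, had 190.1 and 164 against 126 and 119, a log2 fold change of 0.52 ± 0.17 (adjusted p = 0.0528). *Slc6a12*, which carries betaine and GABA, had 53.1 and 41.6 against 9.40 and 37.2. Here WT 2 was close to the S100A4-/- libraries and WT 1 was far below them, and the log2 fold change was 1.27 ± 0.43 (adjusted p = 0.0706). *Slc6a17*, a vesicular carrier of neutral amino acids in neurons, had 1859 and 1998 against 1468 and 1589, and its log2 fold change of 0.34 (adjusted p = 0.000333) was below 2-fold. The monoamine carriers gave no call in either direction. *Slc6a3*, the dopamine carrier, had a log2 fold change of -0.25 and *Slc6a2*, the noradrenaline carrier, of -0.50 with a 95% interval from -2.45 to 1.46. *Slc6a8*, the creatine carrier, had 184 and 137 against 161 and 124, with overlapping groups, and *Slc6a15*, a carrier of branched-chain amino acids, had 584 and 481 against 638 and 607, with an adjusted p of 0.177. *Slc6a14* and *Slc6a19*, both carriers of neutral amino acids, had under 25 in every library.

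The Slc7 family has a branch of cationic amino acid carriers and a branch of light chains that work only when joined to an Slc3 heavy chain. It had 12 of 15 annotated members analysed, of which 3, all on the cationic branch, passed the threshold. *Slc7a1* (ENSMUSG00000041313, chr5:148327410-148399904), the widespread carrier of arginine and lysine, had values of 938 and 952 in S100A4-/- and 467 and 431 in WT. The S100A4-/- libraries differed by less than the WT libraries did, and the log2 fold change was 1.07 ± 0.09 (adjusted p = 3.00e-12). *Slc7a3*, a cationic carrier known from brain, had 30.0 and 33.4 against 9.40 and 6.57, with a log2 fold change of 1.88 ± 0.50 (adjusted p = 0.0127). *Slc7a14*, a lysosomal member of the branch that is mutated in forms of inherited retinal degeneration, had 18.8 and 10.1 against 2.09 and 0, or 2 and 0 reads in WT. Both WT libraries lay at or under the floor of 3 reads. With WT set to 3 reads in each library, the S100A4-/- mean was 4.52 times the WT mean. This is a ratio of means and not a lower bound. On the measured values the limma interval of the fold was wide, from 2.17 to 32.9 (adjusted p = 0.0445). *Slc7a2*, the most abundant cationic carrier per kb of exon, had 13940.6 and 13183 against 14724 and 15055. Both S100A4-/- libraries were below WT, by a log2 fold change of -0.14 ± 0.04 (adjusted p = 0.0512). *Slc7a4*, a relative whose transport activity is uncertain, had overlapping groups and a log2 fold change of -0.10.

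On the light chain branch no member passed the threshold. *Slc3a2*, the heavy chain CD98, had 6958 and 7489.7 in S100A4-/- against 7224.5 and 6965 in WT, with overlapping groups, and the 95% interval of its log2 fold change ran from -0.07 to 0.12. *Slc7a5*, the light chain LAT1 for large neutral amino acids, had 9236 and 9502 against 8027 and 8457, with a log2 fold change of 0.19 ± 0.05 (adjusted p = 0.00600). *Slc7a8*, the related light chain LAT2, had 8726 and 9417 against 9267 and 9423, with overlapping groups. *Slc7a11*, the cystine and glutamate exchanger xCT that feeds glutathione synthesis, had 2816 and 2436 against 2099.8 and 2086, a log2 fold change of 0.32 ± 0.06 (adjusted p = 0.000319). Thus for *Slc7a5* and *Slc7a11* both S100A4-/- libraries lay above both WT libraries, by much less than 2-fold. In a limma fit without a variance trend their adjusted p-values were 0.419 and 0.338. *Slc7a13*, a light chain known from kidney, had 59.1 and 47.6 against 74.1 and 84.3. Its log2 fold change of -0.57 was the most negative of the 46 (adjusted p = 0.214). *Slc3a1*, the heavy chain of the renal cystine carrier, was at or under 3 reads in both S100A4-/- libraries and in WT 2, and its usual partner *Slc7a9* was not analysed here.

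Among the 9 Slc38 carriers of glutamine and small neutral amino acids (of 11 annotated), *Slc38a8* alone passed the threshold. *Slc38a8* (ENSMUSG00000034224, chr8:119479602-119501698), a carrier whose loss in people affects development of the fovea, had 72.8 and 67.9 in S100A4-/- and 11.5 and 2.19 in WT. The S100A4-/- libraries were close together and WT had 11 and 2 reads, and the log2 fold change was 3.50 ± 0.50 (adjusted p = 2.40e-06). It was 4.48 without WT 1, 2.51 without WT 2, 3.45 without S100A4-/- 1 and 3.55 without S100A4-/- 2. The call was kept without either WT library and lost without either S100A4-/- library. *Slc38a2*, the amino acid-responsive carrier SNAT2 and the highest of the family per kb of exon, had 9005 and 9017 against 8339.7 and 8383, a log2 fold change of 0.11 (adjusted p = 0.169). *Slc38a3*, the glutamine carrier SNAT3, had 1532 and 1625 against 1372 and 1323, with a log2 fold change of 0.23 ± 0.07 (adjusted p = 0.0261). *Slc38a9*, the lysosomal carrier that reports arginine to mTORC1, had 199 and 161 against 162 and 161, so that its groups were hardly apart. None of the 3 Slc36 proton-coupled carriers analysed (of 4 annotated) passed, nor did the 2 of the 3 annotated Slc43 carriers. *Slc36a4* had 709 and 632 against 697 and 592, with overlapping groups, and *Slc43a2*, a carrier of large neutral amino acids, had 152 and 119.6 against 102 and 86.5 (log2 fold change 0.51, adjusted p = 0.123). Of the 37 carriers without a call, 26 had a 95% interval within 2-fold on both sides, and the interval of the other 11 reached 2-fold or more.

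**Figure D2:**
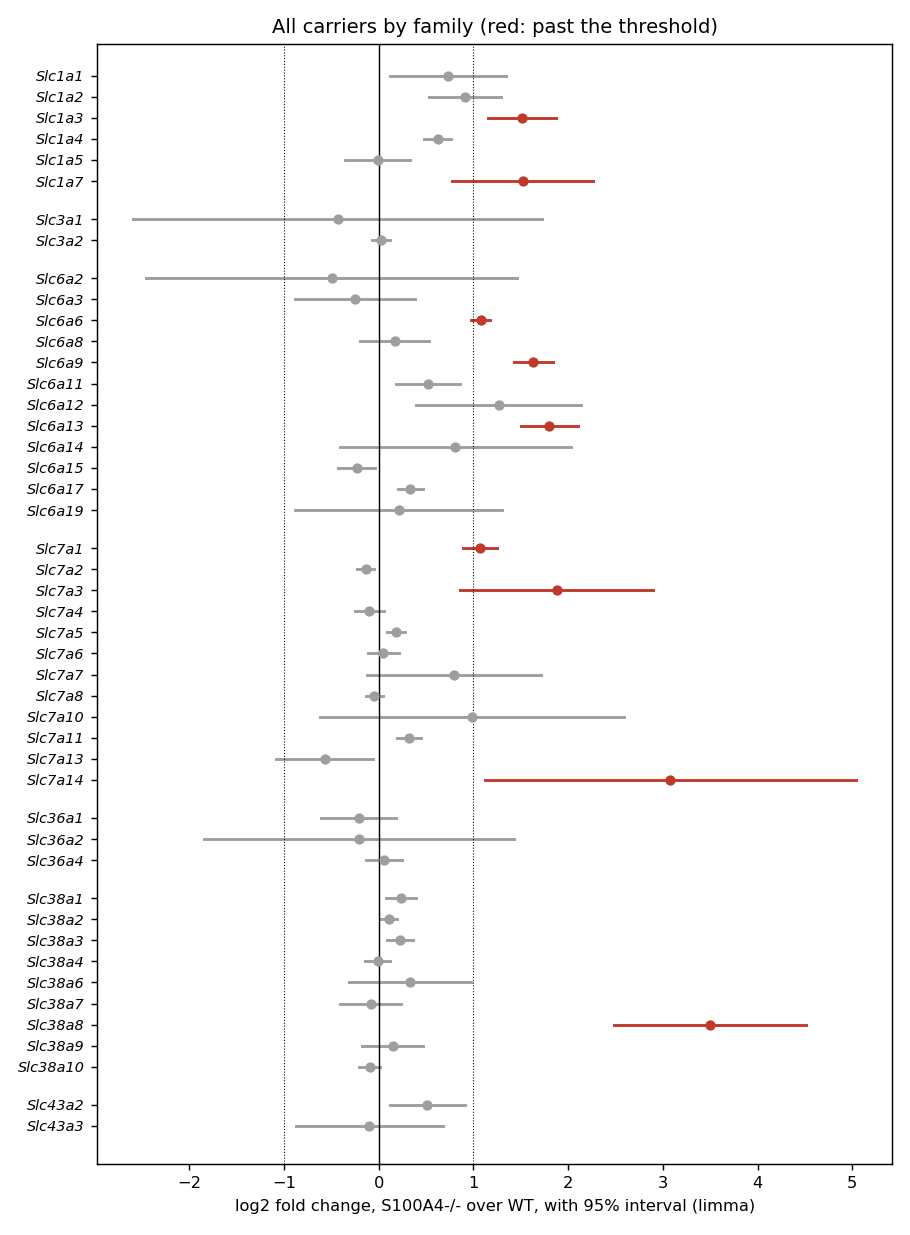
Log2 fold change of S100A4-/- over WT for all 46 carriers (x axis), with the 95% interval from limma, grouped by family, red where past the threshold and with dotted lines at 2-fold. The red points run from 1.07 for *Slc7a1* to 3.50 for *Slc38a8*, and the most negative point is *Slc7a13* at -0.57.

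Of the 9 calls, 7 were also made by both edgeR and DESeq2 on reads recovered from the normalized values. DESeq2 gave adjusted p-values of 0.0750 for *Slc7a3* and 0.123 for *Slc7a14*. Leaving out either S100A4-/- library ended the calls of *Slc1a7*, *Slc7a3*, *Slc7a14* and *Slc38a8*, *Slc7a14* was also lost without WT 2, and *Slc6a6* fell to a log2 fold change of 0.98 without WT 1. In a limma fit without a variance trend only *Slc6a9* and *Slc7a1* of the 46 were called.

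Carriers differed widely in abundance, which is compared here as normalized value per kb of exon. In WT the highest was *Slc7a5* at 2223 ± 82 per kb (mean ± SD, n = 2), followed by *Slc3a2* at 2010 ± 52, *Slc7a8* at 1867 ± 22 and *Slc7a2* at 1630 ± 26. The libraries of these 4 genes did not overlap. *Slc38a2* at 946 ± 3.4 per kb and *Slc6a6* at 913 ± 85 came next and did overlap. In S100A4-/- lenses *Slc6a6* stood at 1923 ± 33 per kb, which placed it at rank 3 of the 46, against rank 6 in WT. *Slc6a9* at 54.8 ± 7.7 and *Slc6a13* at 50.5 ± 16.0 per kb were level with each other in WT and again in S100A4-/-, at 169.6 ± 6.9 and 173 ± 14. Toward the low end in WT, *Slc38a8* stood at 1.95 ± 1.88 per kb, against 20.1 ± 1.0 in S100A4-/-.

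**Figure D3:**
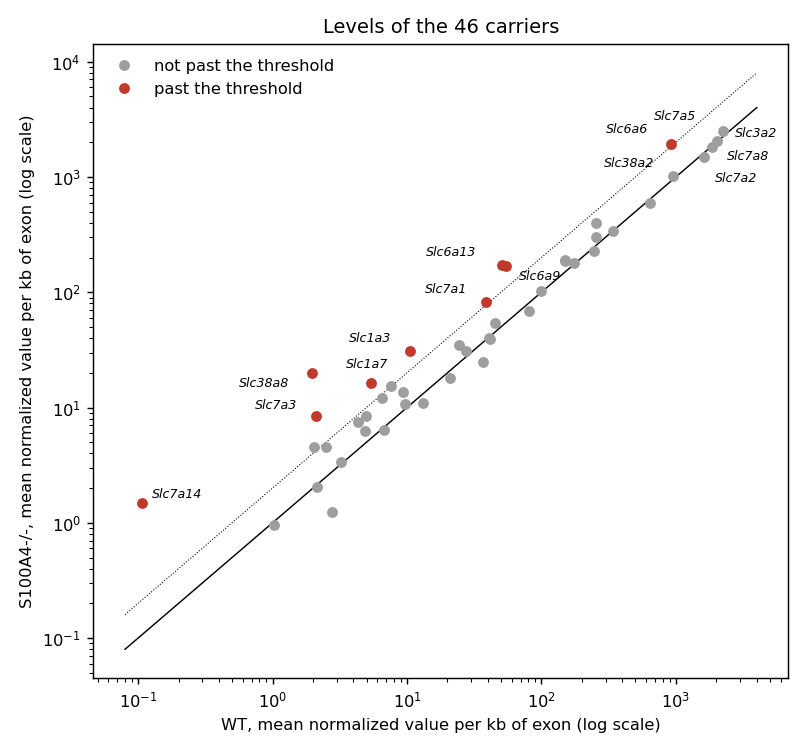
Mean normalized value per kb of exon in WT (x axis) and S100A4-/- (y axis) for the 46 carriers, both on log scales, with a solid line at equal values and a dotted line at 2-fold, and carriers past the threshold in red. *Slc6a6* is the red point at the top, at 913 in WT and 1923 in S100A4-/-, and *Slc7a14* the lowest, at 0.106 and 1.47.

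Summed over the GABA carriers *Slc6a11*, *Slc6a12* and *Slc6a13*, the value per kb was 238 and 209 in S100A4-/- and 67.3 and 97.7 in WT, a ratio of means of 2.71. *Slc6a13* made up 173 of the mean of 223 in S100A4-/-, and without it the ratio was 1.58. Over the glutamate carriers *Slc1a1*, *Slc1a2*, *Slc1a3* and *Slc1a7* it was 69.6 and 64.1 against 25.1 and 28.6, a ratio of 2.49. Both sums, which were not tested, were higher in each S100A4-/- library than in either WT library. The cationic carriers *Slc7a1*, *Slc7a2* and *Slc7a3* came to 1615 and 1535 against 1655 and 1687, a ratio of 0.943, and most of the sum was *Slc7a2*. The heavy chain *Slc3a2* with its light chains *Slc7a5*, *Slc7a6*, *Slc7a7*, *Slc7a8*, *Slc7a10* and *Slc7a11* had a ratio of 1.05. Over all 46 carriers the ratio was 1.14, and it was 1.07 without *Slc6a6*.

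Ratios of reads within a library do not depend on its scaling. For every read of *Slc7a2* there were 0.0673 and 0.0722 reads of *Slc7a1* in S100A4-/- and 0.0317 and 0.0287 in WT. Here the 2 genotypes were apart. The ratio of *Slc6a13* to *Slc6a12*, at 10 and 11.4 against 12.1 and 4.82, overlapped between them.

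By mean normalized value over the 4 libraries the called carriers ran from 7.77 for *Slc7a14* to 697 for *Slc7a1*, with *Slc6a6* far above them at 11991. None of *Slc7a5*, *Slc3a2*, *Slc7a8*, *Slc7a2* and *Slc38a2*, the highest per kb in WT, was called. With a split at a mean normalized value of 500, chosen after the values were seen, 3 of 19 carriers at or above it were called (*Slc6a6*, *Slc6a9* and *Slc7a1*), where 33 of the 5896 genes at that level were higher. Below it 6 of 27 carriers were called, where 506 of 8884 genes were higher. This mean includes the S100A4-/- libraries, so a change can itself move a gene across the split. *Slc6a9* and *Slc7a1* had WT means of 282 and 449, and reached 500 only through the S100A4-/- libraries. The counts are therefore a description, and no link between abundance and calls is read from them.

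**Figure D4:**
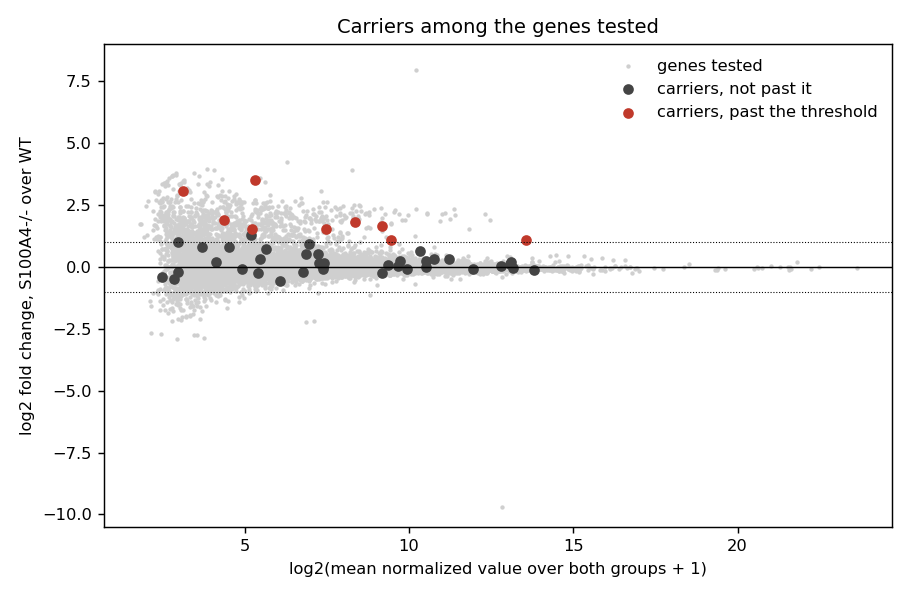
Log2 fold change of S100A4-/- over WT (y axis) against log2(mean normalized value + 1) (x axis) for the genes tested (grey), with the 37 carriers without a call in black and the 9 past the threshold in red, and dotted lines at 2-fold. *Slc6a6* is the red point farthest to the right, and the isolated grey points are *S100a5* at 7.94 and *S100a4* at -9.70.

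The carriers were spread over 18 chromosomes, and chromosome 6 held 4 of them, of which *Slc6a6* and *Slc6a13* were called. *Slc6a13* and *Slc6a12* lie 5342 bases apart, with 1.80 and 1.27. On chromosome 15 *Slc38a1* and *Slc38a2*, 44478 bases apart, had 0.24 and 0.11, and neither was called.

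Promoters of the called carriers are shown to let the sequence before genes that were higher together be compared. RefSeq promoter sequences (GRCm38.p6) were found for 7 of the 9, and up to 250 bases before the first listed start of 4 of them follow, without any base after the start that GENCODE gives. *Slc6a13* was the only one of the 7 with the letters TAATCC, the core bound by photoreceptor homeobox factors, *Slc7a14* has 3 GC boxes, *Slc1a3* has 1 and *Slc38a8* has none. Capitals mark the GC box GGGCGG and TAATCC, each on either strand.
Slc6a13, chr6:121300038-121300226, plus strand: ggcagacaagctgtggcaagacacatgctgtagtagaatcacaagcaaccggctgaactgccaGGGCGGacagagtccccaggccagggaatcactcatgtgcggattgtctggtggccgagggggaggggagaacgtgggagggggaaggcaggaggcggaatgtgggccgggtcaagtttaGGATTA
Slc7a14, chr3:31310379-31310569, minus strand: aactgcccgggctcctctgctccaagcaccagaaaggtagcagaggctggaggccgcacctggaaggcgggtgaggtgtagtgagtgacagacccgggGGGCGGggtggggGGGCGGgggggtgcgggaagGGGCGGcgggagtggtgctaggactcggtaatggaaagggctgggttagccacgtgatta
Slc1a3, chr15:8710808-8711057, minus strand: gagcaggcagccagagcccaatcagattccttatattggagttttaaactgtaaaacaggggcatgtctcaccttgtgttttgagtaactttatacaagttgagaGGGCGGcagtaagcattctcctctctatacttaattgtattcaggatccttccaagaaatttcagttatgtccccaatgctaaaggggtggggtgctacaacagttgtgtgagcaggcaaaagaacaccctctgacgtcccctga
Slc38a8, chr8:119501699-119501948, minus strand: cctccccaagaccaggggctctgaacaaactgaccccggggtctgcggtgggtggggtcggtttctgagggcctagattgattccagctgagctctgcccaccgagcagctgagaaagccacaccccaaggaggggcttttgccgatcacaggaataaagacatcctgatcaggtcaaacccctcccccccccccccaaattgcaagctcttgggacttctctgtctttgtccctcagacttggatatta

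In the whole windows of 250 bases, GGGCGG was present in 6 of the 7 called carriers and in 13 of the 25 other carriers with a sequence, and in 59.2% of the 11021 genes tested that had one, 48.2% of all genes higher in S100A4-/- and 32.9% of all 27025 genes listed. TAATCC was present in 1 of 7 and 0 of 25, and in 5.34% of genes tested, 11.3% of all genes higher in S100A4-/- and 6.38% of all genes listed. The E-box CANNTG was in 7 of 7 and 18 of 25. Its share was 57.0% of genes tested, 67.3% of all genes higher in S100A4-/- and 66.0% of all genes listed. For the remaining motifs these shares follow in brackets in the same order. The TATA box TATAAA was in 1 of 7 and 1 of 25 (6.27%, 12.6% and 13.0%), and TGACG in 2 of 7 and 5 of 25 (26.7%, 16.3% and 17.9%). CCAAT was in 1 of 7 and 8 of 25 (36.3%, 34.4% and 34.5%). TGATGNAA, the core of amino acid response elements, was in 0 of 7 and 2 of 25 (1.93%, 2.01% and 3.53%). All motifs were searched on both strands, and a match is a description of letters in this window only.

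Genes that make, break down or package the same transmitters were read from lists chosen with earlier results known. Of 12 enzymes of glutamate, glutamine and GABA, 4 were higher and 0 lower, with a median log2 fold change of 0.28. *Glul*, glutamine synthetase, had 5387 and 5421 in S100A4-/- and 1779 and 1923 in WT, a log2 fold change of 1.55 ± 0.05. *Gad1*, which makes GABA from glutamate, had 89.9 and 63.8 against 26.1 and 25.2, and its relative *Gad2* had 23.98 and 15.2 against 0 and 1.09. *Asns*, asparagine synthetase, had 534 and 569 against 247 and 228. In all 4 the groups were apart, while *Abat*, which degrades GABA, had a log2 fold change of 0.22.

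Of 7 vesicular and other transmitter carriers, 3 were higher. *Slc17a7*, the vesicular glutamate carrier VGLUT1, had 708 and 632 in S100A4-/- and 159.8 and 135 in WT, with a log2 fold change of 2.18 ± 0.12. *Slc17a8* had 43.7 and 46.6 against 4.18 and 9.85. *Slc32a1*, the vesicular GABA and glycine carrier, had 34.3 and 30.4 against 10.4 and 7.66. *Slc18a2*, the vesicular monoamine carrier and the highest of the list, was on the other side, with 782 and 719 against 1114 and 1014, a log2 fold change of -0.50 ± 0.08 (adjusted p = 1.36e-05) that did not reach 2-fold.

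Of 13 genes of the amino acid response, regulators and targets together, 3 were higher, namely *Trib3* with 70.2 and 87.2 against 12.5 and 2.19, *Chac1* with 44.5 and 47.6 against 7.31 and 8.76, and *Asns*. *Atf4*, the transcription factor of this response and the most abundant of the list, had 5694 and 5558 against 4909 and 4712, a log2 fold change of 0.23 ± 0.05. *Chac1*, which degrades glutathione, was also the only higher gene of 11 taurine and cysteine enzymes. *Gss*, glutathione synthetase and the highest of these, had 14482 and 14569 against 14813 and 14920.2, while *Csad*, which makes taurine, had a log2 fold change of -0.15. None of 10 serine and glycine enzymes (*Psat1* highest), 20 genes of amino acid sensing by mTORC1 (*Rragc* highest) or 12 other amino acid carriers (*Slc15a2* highest) was called, with medians of -0.01, 0.03 and 0.02.

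Markers of other eye cells moved in the same comparison. The lens was well represented, with *Cryaa*, the most abundant lens fiber marker, at 11948800 and 13289400 in S100A4-/- and 13062900 and 13333400 in WT, and 0 of 10 lens fiber and 0 of 6 lens epithelium markers called. All 10 rod photoreceptor markers were higher, with summed values of 9967 and 9781 in S100A4-/- and 2537 and 2693 in WT, *Gnat1*, rod transducin, being the highest. Rod markers were thus present in WT as well, and their sum was 3.78 times as high in S100A4-/-. Of 8 cone markers 4 were higher, with sums of 404 and 427 against 181 and 200.4 (*Gnb3* highest).

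For the retinal cells in which glutamate, GABA and glycine carriers are best known, most markers lay above WT in both S100A4-/- libraries and fewer passed the threshold. Both S100A4-/- libraries lay above both WT libraries for 7 of 9 Müller glia markers (median log2 fold change 0.59) and 6 of 7 bipolar cell markers (0.92). The same held for 7 of 7 amacrine and ganglion cell markers (1.5), and for 23.7% of all genes tested. Of 9 Müller glia markers 3 were higher (*Crym*, *Abca8a* and *Rlbp1*), and *Vim*, the highest, and *Dkk3*, both also abundant in lens, were not, so that the sums of 161165 and 172291 against 170169 and 171166 did not separate. *Rlbp1*, the retinaldehyde carrier of Müller glia and pigment epithelium, had 267 and 219 against 84.6 and 97.4. Of 7 bipolar cell markers 2 were higher, with sums of 2912 and 2714 against 2266 and 2207 (*Prkca* highest), and of 7 amacrine and ganglion cell markers 4, with 2048 and 2011 against 1763 and 1793 (*Tfap2a* highest). None of 4 astrocyte markers was higher, with 4387 and 4247 against 4542 and 4790.2 (*Pdgfra* highest). *Pdgfra* was also on the list of lens epithelium markers, so this sum does not stand for astrocytes alone.

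Outside the neural retina, 6 of 9 pigment cell markers were higher, with sums of 1929 and 1951 against 589 and 716 (*Ttr* highest), and 5 of 8 ciliary epithelium markers, with 4605 and 4355 against 3037 and 3265 (*Aqp1* highest). Of 8 macrophage markers 4 were higher, with 311 and 279.7 against 117 and 94.2 (*Csf1r* highest), of 5 blood cell markers 1, with 294 and 259 against 169 and 98.5 (*Hbb-bs* highest), and of 7 endothelium and pericyte markers 1, with 2661 and 2668 against 2509 and 2597 (*Pdgfrb* highest). *Cnga3*, *Mlana* and *Adgre1* were at or under 3 reads in both WT libraries, and *Crym* and *Opcml* had 0 reads in WT 2. The part of such cells in the values of the carriers was not tested, and in RNA of whole lenses more cells of a type and more RNA per cell cannot be told apart.

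**Figure D5:**
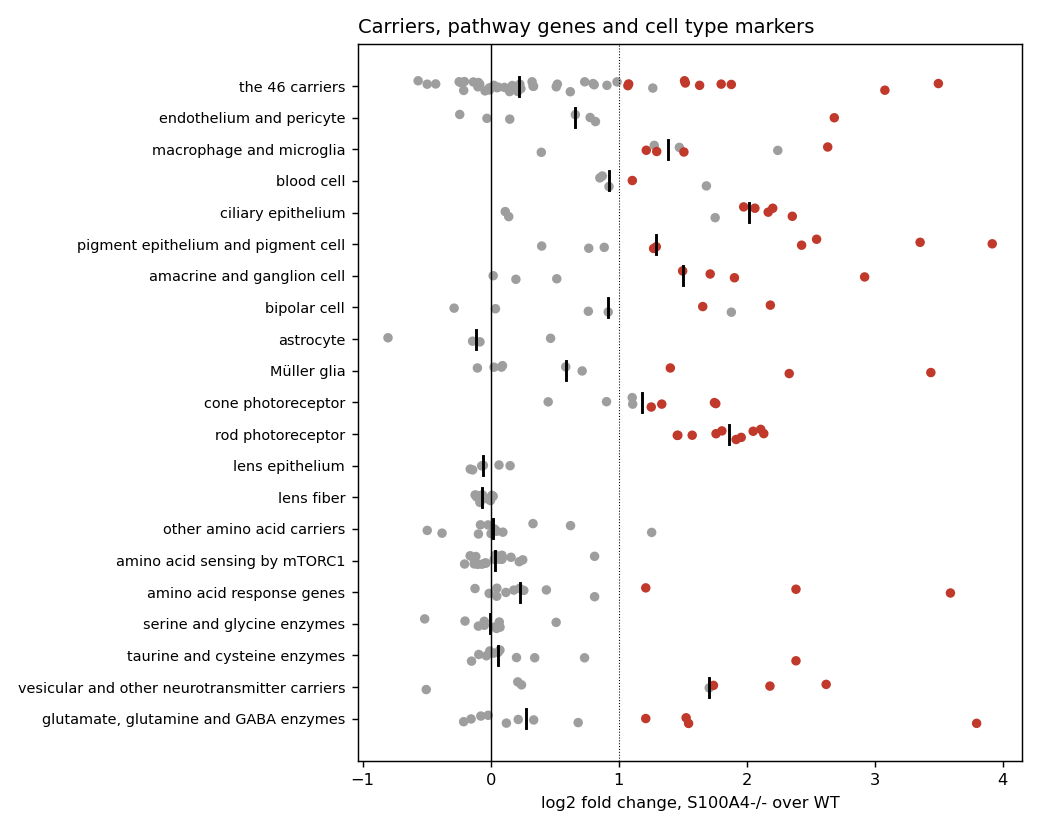
Log2 fold change of S100A4-/- over WT (x axis) for each gene of the 46 carriers, the pathway lists and the cell type marker lists (rows), red where past the threshold, with a black bar at each list's median and a dotted line at 2-fold. The median is 0.22 for the carriers, 1.86 for the rod markers and -0.06 for the lens fiber markers.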

How the data were processed

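Reads were trimmed (Trim Galore), aligned (STAR), counted on genes (HTSeq) and normalized (DESeq2) by the authors, and the submitters' processing notes name the build mm10. The normalized signal values that the authors deposited are gene counts over the size factor of the library, and genes entered their table with 10 reads or more in at least 1 library. In each library 100.0% of values were whole multiples of 1 read (within 0.01 read), so reads were recovered by division. The smallest number of reads taken as detectable was 3, and such floors cover counting error only. No column of per-sample values was without a sample (0 columns).

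Gene names and coordinates came from GENCODE M21, in which 14782 of 14924 identifiers were found, and 15 carriers matching the symbol rule, and 1 gene of the enzyme list, are not reported here. Values per kb used the summed length of a gene's exons in that annotation. The 2 genotypes were compared in limma 3.58.1 (lmFit and eBayes with a variance trend) in R 4.3.3 on log2(value + 1), so that fold changes of genes with few reads depend on the added 1, for the 14780 genes that reached a value of 10 in any of the 4 libraries, with Benjamini-Hochberg adjustment over all of them. A gene was called at a change of at least 2-fold and an adjusted p of at most 0.05. edgeR 4.0.16 and DESeq2 1.42.0 on the recovered reads, other scalings, filters and pseudocounts, the replicate number as a block and each library left out were alternatives. The fits were tested on simulated data.

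Values are given for each carrier past the threshold, those the study names, the highest of each family per kb of exon, and the subunits and partners *Slc3a1*, *Slc3a2*, *Slc7a5*, *Slc7a11* and *Slc7a9*. Other carriers are examples, and from each list the genes past the threshold or a count of them and the highest gene are named. The members, the gene lists, the marker lists and the motifs were chosen with earlier results of these data known. Promoters were the first listed RefSeq start of each gene. The genes of a single chromosome, on which none of the carriers analysed lies, were left out of all promoter counts and shares. Whether pools of a group shared litters is not given in the sources used here.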

Additional observations from a re-analysis of the deposited data

How the results depend on the processing

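No carrier was called lower under any alternative run. The number of carriers called higher (9) stayed within 1.5 times under pseudocounts of 0.5 and 5, no filter, TMM factors, equal totals, quantile normalization, DESeq2 and edgeR (7 to 9). It was 5 with a mean value of at least 50, which left 30 carriers to test, 2 without a variance trend, 3 with limma's treat function set to 2-fold, and 15 with no fold threshold. Over all genes the counts higher and lower were 281 and 6, 174 and 7, 168 and 3, and 831 and 197 in the same order, with 23 lower under quantile normalization and 6 lower with DESeq2. Leaving out each library gave 5 to 10 carriers higher, and 168 to 546 genes higher and 4 to 13 lower, where the lone library of a group is assumed to vary like the other group. Fitting the replicate block gave 10 carriers (with *Slc6a12*, adjusted p = 0.0153), 576 genes higher and 15 lower. The correlation of same-numbered deviations was 0.012, so the numbers do not pair the libraries.

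Of the called carriers, *Slc7a14* was also not called with a pseudocount of 0.5 (adjusted p = 0.0526), equal totals (0.0565) and quantile normalization (0.185), the last of which also lost *Slc7a3* (0.0831). Without an S100A4-/- library, adjusted p-values were 0.0929 and 0.280 for *Slc1a7*, 0.191 and 0.219 for *Slc7a3*, 0.364 and 0.176 for *Slc7a14*, and 0.103 and 0.0751 for *Slc38a8*. Without WT 2, *Slc1a2* (log2 fold change 1.01) and *Slc6a12* (2.21) were gained, while *Slc6a12* was at 0.33 (adjusted p = 0.761) without WT 1. The cause was not tested.

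The log2 fold changes of some carriers without a call changed sign, among them *Slc6a2* and *Slc3a1*, which were at -0.50 and -0.43. With equal totals *Slc1a5* and *Slc38a4* were at 0.019 and 0.020, and under quantile normalization *Slc6a19* was at -0.092 and *Slc7a8* at 0.0030. With each library left out, the range was -0.26 to 0.24 for *Slc1a5*, -0.95 to 0.54 for *Slc36a2*, -0.059 to 0.18 for *Slc36a4*, -0.044 to 0.026 for *Slc38a4*, -0.21 to 0.042 for *Slc38a7*, -0.0022 to 0.30 for *Slc38a9*, -1.72 to 0.86 for *Slc3a1*, -0.028 to 0.078 for *Slc3a2*, -0.40 to 0.20 for *Slc43a3*, -0.50 to 0.92 for *Slc6a19*, -1.85 to 0.86 for *Slc6a2*, -0.044 to 0.38 for *Slc6a8*, -0.014 to 0.11 for *Slc7a6* and -0.10 to 0.011 for *Slc7a8*.

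With 2 pools in each group, carriers with few reads have wide intervals, and a missing call there does not show equal levels.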

Other observations

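On the lower side, 3 carriers had an unadjusted p under 0.05 (limma) and none passed after adjustment, namely *Slc6a15* at a log2 fold change of -0.23, *Slc7a2* at -0.14 and *Slc7a13* at -0.57. For *Slc7a2* the adjusted p was 0.0512, and over the alternatives it was under 0.05 with a pseudocount of 5 (0.0447) and with the replicate block (0.00954). Over all genes tested, 991 were lower and 1620 higher at the same unadjusted p. Some genes of the pathway lists that were not called still passed the adjusted p with less than a 2-fold change. *Gldc*, which splits glycine, had 1863 and 1928 in S100A4-/- and 1245 and 1419 in WT (log2 fold change 0.51), and *Gcsh*, another part of the glycine cleavage system, had 1785.5 and 1953 against 2183 and 2109 (log2 fold change -0.20, adjusted p = 0.0396 with limma). *Got1*, an aspartate aminotransferase, had 307 and 293 against 170.2 and 204, and *Sesn2*, a leucine sensor induced by stress, had 195 and 198 against 101 and 123. Thus *Gldc* and *Gcsh* stood on opposite sides of WT. These genes were chosen after their values were seen.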
